A study of Rattus norvegicus with 24 samples.

Results

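Mast cell genes were described in the lungs of F-344 rats that inhaled hexanal, a volatile aldehyde. The list of 9 genes comprised the granule proteases Cma1, Cpa3, Tpsb2, Tpsab1 and Mcpt2, the receptor genes Fcer1a, Ms4a2 and Kit, and the histamine-forming enzyme gene Hdc. A member was taken as any probe whose transcript accession mapped to one of these symbols, whatever its level. The list of genes itself was chosen with earlier results of these data known. Of the 9 genes, 8 had a probe, out of 27455 genes or unnamed probes on the array, and all 8 stayed in the test. Mcpt2 had no symbol of its own in the gene table used for names. Mcpt1, whose older names in that table include rMCP-2, is given below as a neighbouring protease and not in its place.

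Mast cells are tissue-resident immune cells that lie around airways, vessels and the pleura in the lung. They store serine proteases (chymases and tryptases), carboxypeptidase A3, histamine and heparin in granules, and release them when antigen cross-links IgE bound to the high-affinity receptor FcεRI. They depend on stem cell factor acting through the receptor tyrosine kinase KIT, and they also make leukotrienes and prostaglandin D2. Kit and Hdc are read in other cells as well, and none of the other members is taken here as specific for mast cells.

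Whole-lung RNA of 24 rats was measured on one-colour arrays, 1 rat per array. The control group breathed filtered clean air, and the low-dose, middle-dose and high-dose groups breathed hexanal at 600, 1000 and 1500 ppm through the nose only. All rats were F-344 animals about 7 weeks old at the start. Each group held 6 rats, 3 males (rats 1 to 3, 6 to 8, 11 to 13 and 16 to 18 in order of dose) and 3 females (rats 21 to 23, 26 to 28, 31 to 33 and 36 to 38). Sources differ on the exposure, with 4 weeks and ppm in the methods against 5 weeks and mg per cubic meter in the labels' protocol. The names of the groups use ppm, which is kept here. In bulk lung RNA, fewer mast cells and less RNA per mast cell cannot be told apart. All levels below are log2 signals relative to the 75th percentile of the rat's own array, so a level of one gene is compared only with the same gene in other rats.

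There were 6 slides with 4 arrays apiece, each with rats of 1 sex. Only the 600 ppm group shared slides with the control group, with 1 rat on each of 2 control slides. The control group was on no slide with 1000 or 1500 ppm rats. The share of probes well above background was between 70.66% and 81.74% per array and no probe was saturated. Of 9 heart muscle marker genes tested, 4 (Actc1, Tnni3, Tnnt2 and Sln) were higher at 1000 ppm at 1.5-fold and an unadjusted p-value under 0.05, against 1.29% of all tested genes, and none passed adjustment. Their summed signal per rat, for all 9 genes, was 345 to 3922% of the array's 75th percentile in the control group, 511 to 6527% in the low-dose, 867 to 13680% in the middle-dose and 355 to 13940% in the high-dose group. The part of this heart signal in the values below was not tested beyond the correlations given with them.

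Promoter sequences of the members are given as a description, with no test attached. RefSeq promoters of the rat assembly GRCr8 were given for 7 of the 8 genes, all but Ms4a2. The 250 bases before the transcript start were searched on both strands for hexamers that GATA factors can bind, namely AGATAA or TGATAA as well as AGATAG or TGATAG. Cpa3 held 2 matches, Cma1 and Fcer1a 1 each, and Tpsab1, Tpsb2, Kit and Hdc none, so that 3 of 7 promoters matched against 27.0% of all 33469 promoters of the same length. Matches are printed in capitals as they read on the strand shown, 5′ to 3′, with the last base next to the start. Cpa3 lies on the minus strand at chr2:104673238-104673487, Cma1 on the minus strand at chr15:33390134-33390383, Fcer1a on the minus strand at chr13:88224680-88224929, and Kit, printed as a promoter without a match, on the minus strand at chr14:32978813-32979062.
Cpa3: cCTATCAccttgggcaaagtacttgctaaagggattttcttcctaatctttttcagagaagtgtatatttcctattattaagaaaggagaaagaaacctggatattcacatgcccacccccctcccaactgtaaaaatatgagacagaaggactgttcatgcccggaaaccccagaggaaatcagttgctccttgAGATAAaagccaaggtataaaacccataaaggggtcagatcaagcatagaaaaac
Cma1: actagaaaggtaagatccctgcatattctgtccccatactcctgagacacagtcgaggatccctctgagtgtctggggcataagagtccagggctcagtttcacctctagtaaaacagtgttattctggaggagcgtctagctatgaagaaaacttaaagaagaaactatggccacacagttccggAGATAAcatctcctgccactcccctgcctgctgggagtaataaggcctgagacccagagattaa
Fcer1a: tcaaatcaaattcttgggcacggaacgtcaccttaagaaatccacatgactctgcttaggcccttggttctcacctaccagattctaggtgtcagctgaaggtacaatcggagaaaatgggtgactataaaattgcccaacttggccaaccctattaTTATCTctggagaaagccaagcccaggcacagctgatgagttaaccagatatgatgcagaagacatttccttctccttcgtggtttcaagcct
Kit: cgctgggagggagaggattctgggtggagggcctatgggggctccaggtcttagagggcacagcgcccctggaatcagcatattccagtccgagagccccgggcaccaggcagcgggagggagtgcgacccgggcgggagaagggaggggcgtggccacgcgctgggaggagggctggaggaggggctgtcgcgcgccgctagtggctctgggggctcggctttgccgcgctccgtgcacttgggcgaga
The AGATAA of Cpa3 began 55 bases before the start and that of Cma1 64 bases before it. In Fcer1a the match was on the opposite strand (TTATCT as printed), from 93 to 88 bases before the start. The hexamer CACGTG or its variant CATGTG, which MITF can bind, were found in Cpa3, Fcer1a and Tpsb2, that is in 3 of 7 against 17.1% of all promoters, and overlapped none of the GATA matches. A match is a string of letters and not a measured binding site. Tpsab1 and Tpsb2, which held no GATA match, are among the 6 genes that went up and down together from rat to rat, as described further on. The part of the matches in that correlation was not tested.

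The first question was whether any dose of hexanal moved the mast cell genes. None of the 8 genes was called at 600, 1000 or 1500 ppm by the call rule used here, a fold change of 1.5 or more with an unadjusted limma p-value under 0.05, where limma stands in place of the methods' t-test. By that rule 0.616% of the 21255 genes or unnamed probes tested were called at 600 ppm, 1.64% at 1000 ppm and 1.22% at 1500 ppm. None had a Benjamini-Hochberg adjusted limma p-value under 0.05 either, where all tested genes gave 0.00%, 0.0188% and 0.00470%. Over the 24 comparisons of a gene with control, the smallest unadjusted limma p-value was 0.230 (Kit at 600 ppm), so 0 of 24 passed without adjustment (against 4.33%, 8.99% and 6.97% of all tested genes in order of dose), and the methods' t-test with the same fold threshold likewise called 0 members. The median difference of the 8 genes was -0.08 at 600 ppm, -0.05 at 1000 ppm and -0.32 at 1500 ppm, whereas that of all tested genes was -0.00, 0.00 and 0.01. Within the male and the female slide that held control and 600 ppm rats (3 against 1 on each), the 600 ppm rat differed from the control mean by 0.32 and 0.12 for Cpa3, 0.14 and 0.28 for Tpsb2, 0.18 and 0.64 for Tpsab1, and -0.15 and -0.64 for Hdc. Cma1 (0.72 and -0.79), Fcer1a, Ms4a2 and Kit had opposite signs on these slides.

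**Figure D1:**
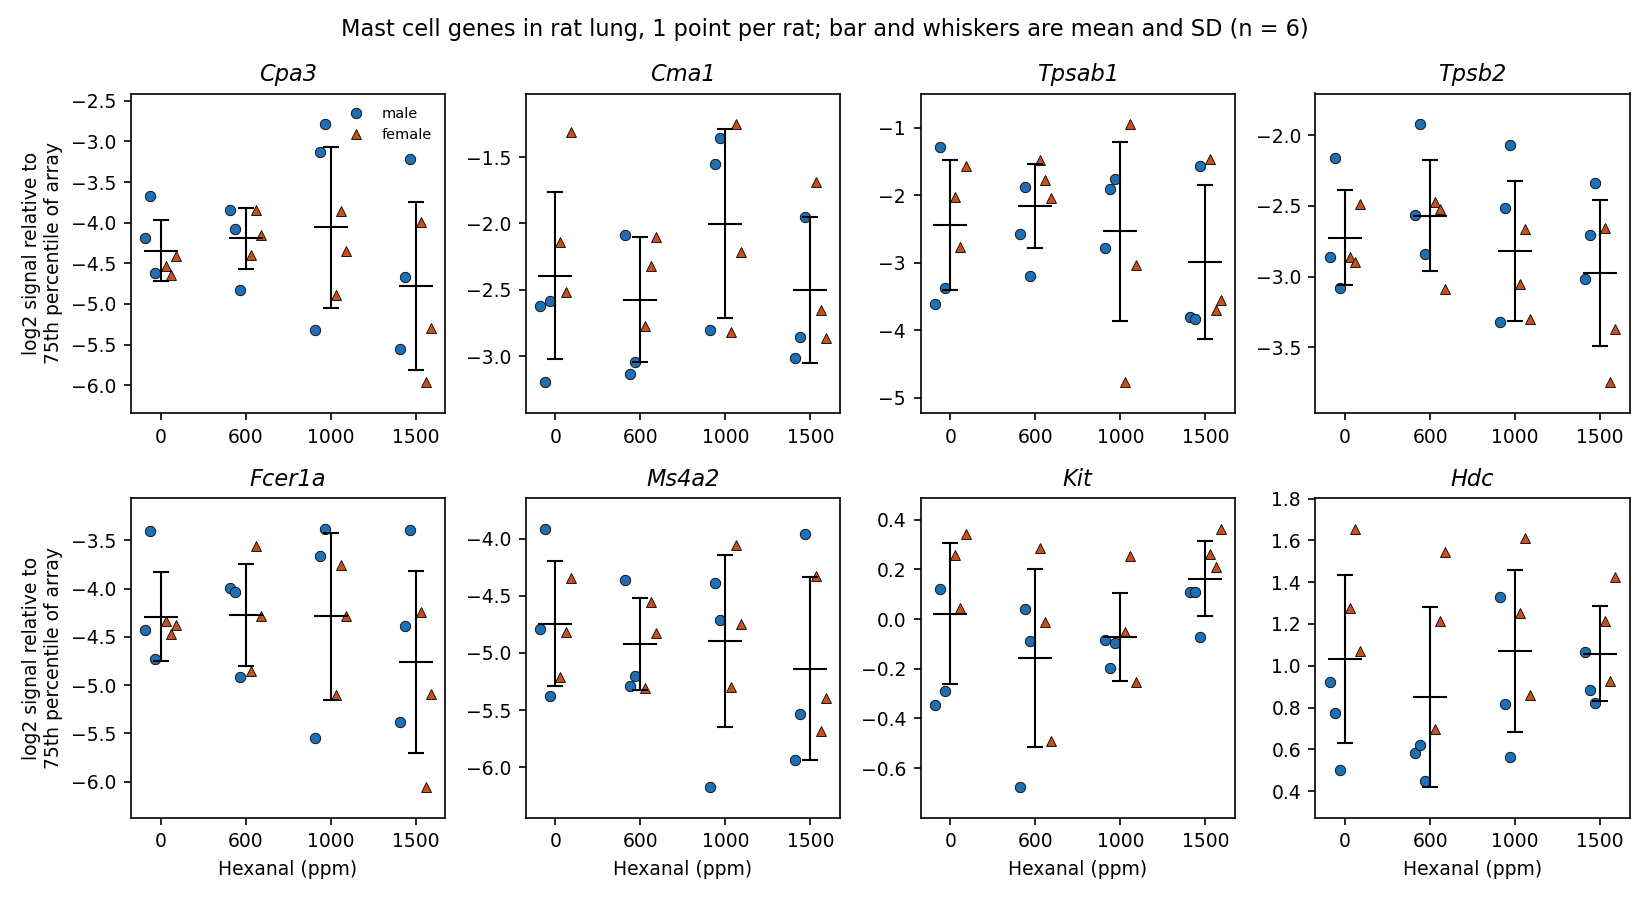
Log2 signal of each mast cell gene relative to the array's 75th percentile (vertical axis) in each rat by hexanal dose in ppm (horizontal axis, 0 is control), with males as circles and females as triangles and the mean and SD of 6 rats as bars. Each dose group overlapped control for all 8 genes, as for nearly all tested genes (0.273%, 0.452% and 0.480% did not overlap, in order of dose). The 1000 and 1500 ppm rats of Cpa3 and Fcer1a were spread more widely than the control rats.

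Carboxypeptidase A3, encoded by Cpa3 and stored with the chymases, trims peptides and venom toxins. In the control group Cpa3 (probe A_43_P15942) had a lowest value of -4.64, a median of -4.47 and a highest value of -3.67. In the low-dose group these were -4.83, -4.12 and -3.84, and in the middle-dose group -5.32, -4.10 and -2.79. In the high-dose group they were -5.97, -4.98 and -3.22, so that 4 rats of this group were under the whole control range while 1 was over it. The difference from control at 1500 ppm was -0.44 (SE 0.42, 95% interval -1.31 to 0.43, limma adjusted p = 0.866), within the spread between rats. At 1000 ppm the difference was 0.29 (SE 0.42), with 2 rats above and 2 rats below all control rats.

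Cma1 encodes a granule protease of the chymase family. Its lowest, median and highest values (probe A_44_P1029706) were -3.20, -2.55 and -1.31 in control, -3.13, -2.55 and -2.09 in the low-dose, -2.82, -1.89 and -1.25 in the middle-dose, and -3.01, -2.75 and -1.69 in the high-dose group. One middle-dose rat exceeded all control rats and none of the other exposed rats left the control range. The middle-dose difference of 0.39 (SE 0.33, 95% interval -0.29 to 1.08, limma adjusted p = 0.745) was the highest of the 8 genes at that dose. It was 0.90 in males and -0.11 in females, and the difference between the sexes did not pass the test (SE 0.66, limma adjusted p = 0.664).

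Tpsab1 and Tpsb2 encode tryptases, trypsin-like proteases that form tetramers on heparin. Tpsab1 (probe A_64_P159959) ran from -3.61 to -1.29 in control with a median of -2.40, from -3.20 to -1.49 at 600 ppm with a median of -1.96, from -4.77 to -0.95 at 1000 ppm with a median of -2.35, and from -3.83 to -1.47 at 1500 ppm with a median of -3.62. The groups overlapped, although 3 high-dose rats lay below all control rats. The difference at 1500 ppm, -0.55 (SE 0.57, 95% interval -1.74 to 0.64, limma adjusted p = 0.881), was the largest in size of the 24 and less than its SE. Tpsb2 (probe A_64_P066860) had medians of -2.86, -2.54, -2.86 and -2.86 in order of dose, with all rats between -3.75 and -1.92. Its difference at 1500 ppm was -0.25 (SE 0.24, limma adjusted p = 0.874). All 4 proteases had a lower mean than control at 1500 ppm, as had 9829 of all 21255 tested genes, and none of the 4 passed the test. The files hold no probe sequences, so signal shared between the tryptase probes was not tested.

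Fcer1a encodes the subunit of FcεRI that binds IgE, and Ms4a2 the beta subunit that amplifies its signal. Fcer1a (probe A_64_P052825) had a lowest value of -4.73, a median of -4.40 and a highest value of -3.40 in control, and -4.91, -4.16 and -3.56 at 600 ppm. The middle-dose rats had -5.54, -4.02 and -3.38, and the high-dose rats -6.05, -4.74 and -3.39. In each of these groups 1 rat lay just above the highest control rat. Below all control rats lay 2 middle-dose and 3 high-dose rats. The difference was 0.02 at 600 ppm, 0.00 at 1000 ppm and -0.47 at 1500 ppm (SE 0.40 each, limma adjusted p = 0.850 at 1500 ppm). With the slide as a fixed block the high-dose differences were larger in size, -1.38 for Fcer1a and -1.07 for Cpa3, and still not called. A further Fcer1a probe (A_42_P654682), spotted 10 times on each array, followed the first over the 24 rats with r = 0.98 (Spearman's rho 0.98, permutation p = 1.00e-05, the smallest that 100000 permutations can give). For Ms4a2 (probe A_43_P15496) the lowest, median and highest values were -5.38, -4.81 and -3.91 in control, -5.30, -5.01 and -4.36 in the low-dose, -6.17, -4.73 and -4.06 in the middle-dose, and -5.93, -5.46 and -3.96 in the high-dose group. Although 4 high-dose rats lay below all control rats, the difference of -0.40 (SE 0.36, limma adjusted p = 0.854) did not pass the test.

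Kit encodes the receptor for stem cell factor, on which mast cells depend, and which other lung and blood-forming cells also carry. Kit (probe A_64_P117011) lay between -0.34 and 0.34 in control (median 0.08), between -0.68 and 0.29 at 600 ppm (median -0.05), between -0.25 and 0.25 at 1000 ppm (median -0.09) and between -0.07 and 0.36 at 1500 ppm (median 0.16). The 95% intervals of its differences ran from -0.48 to 0.12, from -0.39 to 0.21 and from -0.16 to 0.44 in order of dose, so a change of 1.5-fold in either direction lay outside all of them. Hdc, the enzyme that makes histamine from histidine, lay (probe A_64_P122489) between 0.50 and 1.65 in control (median 1.00), between 0.45 and 1.54 at 600 ppm (median 0.66), between 0.56 and 1.61 at 1000 ppm (median 1.06) and between 0.82 and 1.42 at 1500 ppm (median 1.00). Its differences were -0.18, 0.04 and 0.02 (SE 0.21 each), less than their SE at every dose. With the slide as a fixed block they were -0.39, -0.10 and 0.25, with no call.

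**Figure D2:**
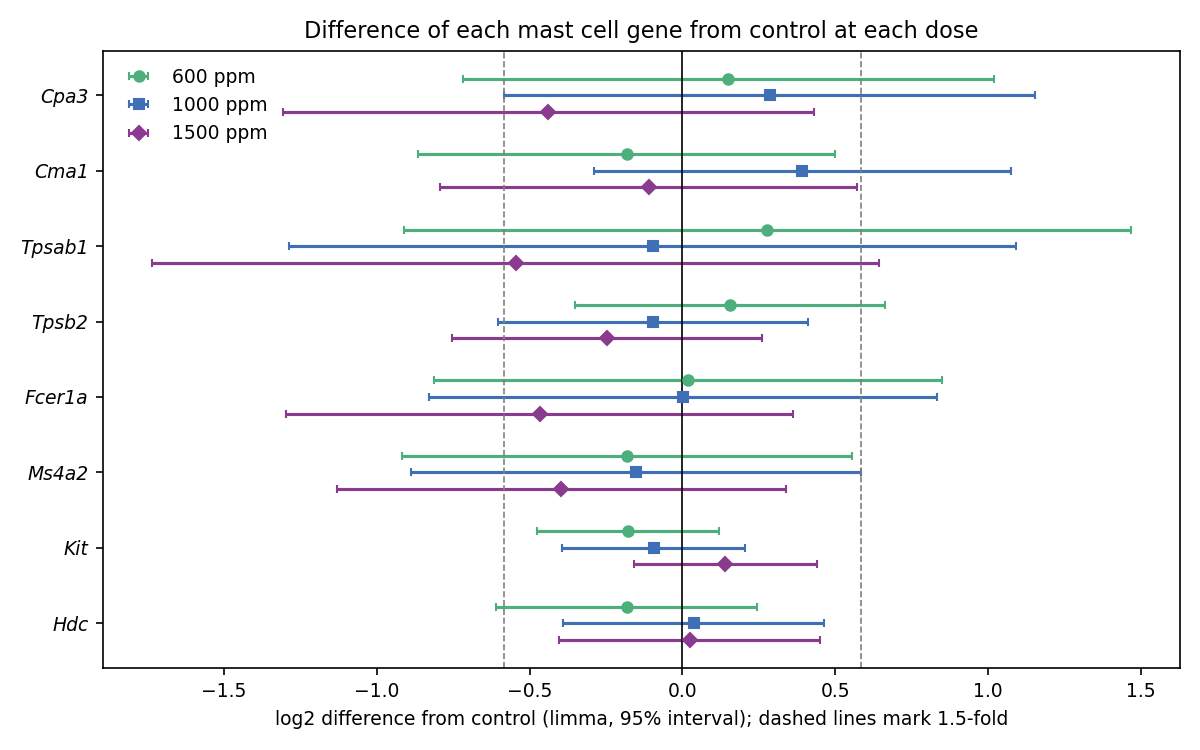
Log2 difference from control (horizontal axis) with its 95% limma interval for each gene (vertical axis) at 600, 1000 and 1500 ppm, where dashed lines mark a 1.5-fold change. Every interval includes 0; those of Kit stay between the dashed lines at all 3 doses, and those of Tpsab1 are the widest.

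A slope on dose was then fitted over all 24 rats. No member had an adjusted p-value under 0.05, where 0.0141% of all tested genes did, nor an unadjusted one, where 8.49% did. The slopes per 1500 ppm ran from -0.58 (SE 0.54, limma adjusted p = 0.787) for Tpsab1 to 0.14 (SE 0.15) for Kit, and the smallest unadjusted p-value was 0.236, for Tpsb2. No member passed the adjusted test for a dose effect that differed between the sexes, at any dose. Of all tested genes 0.00% passed at 600 ppm, 0.00% at 1000 ppm and 5.02% at 1500 ppm. Without adjustment 0 of 8 members passed at each dose, against 4.99%, 9.41% and 20.2% of all tested genes. At 1500 ppm the female minus male differences of effect lay between -0.61 (Cma1, SE 0.66) and 0.10 (Ms4a2, SE 0.77), the smallest adjusted limma p being 0.594.

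The levels themselves, apart from dose, were compared between females and males with the group as a covariate. Hdc was higher in females, at 1.23 ± 0.30 against 0.78 ± 0.26 (SD, n = 12 rats per sex), with the female mean higher in 4 of 4 groups. The difference of 0.45 (SE 0.11) had an adjusted limma p of 0.00589, or 0.0290 with the slide as a random block, and 24.9% of all tested genes differed between the sexes at this threshold (13.3% with the block). No other member passed. Kit was higher by 0.22 in females (SE 0.09, limma adjusted p = 0.0811), in 4 of 4 groups, and Tpsb2 was lower by 0.31 (SE 0.16, limma adjusted p = 0.170). Since each slide held 1 sex, sex and slide cannot be told apart.

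The spread between single rats is described next, as a range that cannot be compared with a difference between means of 6 rats. Between the lowest and the highest of the 24 rats, Tpsab1 varied 14.1-fold (rat 31 to rat 32, both females at 1000 ppm) and Cpa3 9.02-fold (rat 37 at 1500 ppm to rat 13 at 1000 ppm). Fcer1a varied 6.36-fold between the same pair of rats as Cpa3, and Ms4a2 4.78-fold, Cma1 3.85-fold and Tpsb2 3.54-fold. Hdc varied 2.31-fold and Kit 2.05-fold. The SD within groups, 0.23 for the median gene tested, placed Tpsab1 at percentile 98.8 of all tested genes, Cpa3 at 96.5, Fcer1a at 96.0, Ms4a2 at 94.1, Cma1 at 92.7 and Tpsb2 at 83.7, whereas Hdc was at 75.8 and Kit at 55.6. For Cpa3 the SD was 0.37 in control, 0.38 at 600 ppm, 0.99 at 1000 ppm and 1.03 at 1500 ppm, and for Fcer1a 0.46, 0.53, 0.86 and 0.94. For Kit it was 0.28, 0.36, 0.18 and 0.15, for Hdc 0.40, 0.43, 0.39 and 0.23, and for Cma1 0.63, 0.47, 0.71 and 0.55. The differences between these SDs were not tested. Median signals in the control group were 98.6 for Ms4a2, 115 for Cpa3, 119 for Fcer1a, 383 for Tpsb2, 490 for Tpsab1 and 498 for Cma1. Those of Kit and Hdc were brighter, at 2520 and 5340. The part of dim signal in these SDs was not tested.

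The next comparison asked whether a rat with a high level of one mast cell gene had high levels of the others. The mean of each dose group was subtracted, and each of the 28 pairs of genes was correlated over the 24 rats with a permutation test that shuffled rats within groups. Of the 28 pairs, 14 had an adjusted p-value under 0.05, all of them among Cpa3, Cma1, Tpsab1, Tpsb2, Fcer1a and Ms4a2 and all positive. Of the 15 pairs of these 6 genes, r ran from 0.31 to 0.95 with a median of 0.67, and the exception was Cma1 with Tpsb2 (r = 0.31, Spearman's rho 0.31, permutation p = 0.178, adjusted 0.293). Over the 24 rats none of the 7 pairs with Kit passed (r from -0.17 to 0.36) and none of the 7 with Hdc (r from -0.34 to 0.26).

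Cpa3 and Fcer1a, a granule protease and an IgE receptor subunit, gave the closest pair, with r = 0.95 and rho 0.94 (permutation p = 1.00e-05 and adjusted p = 0.00014 for each), and 0.94 without rats 13 and 18, the farthest from the median of Cpa3. Fcer1a and Ms4a2, subunits of one receptor, had r = 0.83 and rho 0.80 (permutation p = 1.00e-05, adjusted 0.00014), and 0.80 without the rats farthest from the median. Cpa3 followed Tpsb2 (r = 0.80, rho 0.79, permutation p = 6e-05, adjusted 0.00042), Ms4a2 (r = 0.81, rho 0.80, permutation p = 3e-05, adjusted 0.00028) and less closely Cma1 (r = 0.58, rho 0.59, permutation p = 0.00825, adjusted 0.0192). Without the 2 farthest rats the adjusted p for Cpa3 and Cma1 was 0.0532 (r = 0.51). The pairing of the mast cell receptor Kit with Cpa3 gave r = -0.17 (rho -0.13, permutation p = 0.311, adjusted 0.436), and that of Hdc with Cpa3 gave r = -0.26 (rho -0.29, permutation p = 0.207, adjusted 0.321).

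**Figure D3:**
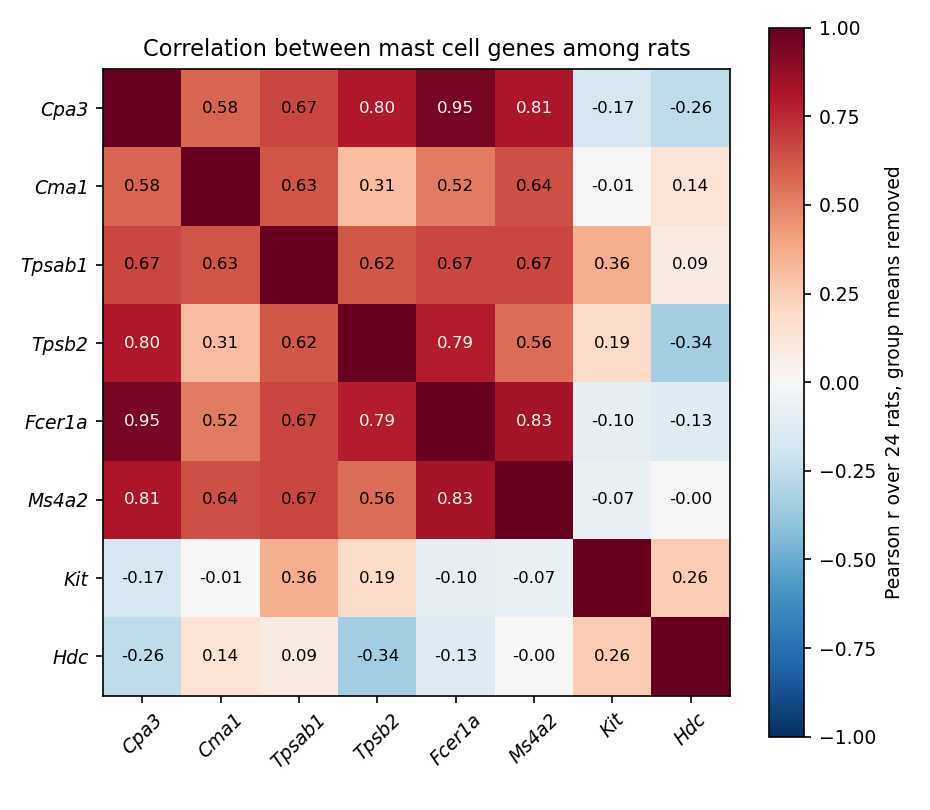
Pearson r over 24 rats, after the group means were removed, between every pair of the 8 genes on both axes, with red for positive and blue for negative values. Cpa3, Cma1, Tpsab1, Tpsb2, Fcer1a and Ms4a2 were correlated at 0.31 to 0.95 with each other, and Kit and Hdc at -0.34 to 0.36 with these and each other.

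The correlations were recomputed within slides and within sexes. With deviations taken from the slide mean, 14 of 28 pairs passed and the 15 pairs had a median r of 0.75, and with deviations from the mean of group and sex the count was also 14 with a median r of 0.75. In the 12 males alone 8 of the 15 pairs passed (median r 0.78), and Kit with Cma1 passed as well, with a negative r of -0.69 (adjusted p = 0.0371). In the 12 females alone 1 of the 15 passed (median r 0.76) and no pair with Kit or Hdc did. Among the 12 rats of the 1000 and 1500 ppm groups 13 of the 15 pairs passed (median r 0.83), and Kit with Hdc passed as well (r = 0.77, adjusted p = 0.0134). Among the 12 control and 600 ppm rats 1 of the 15 passed (median r 0.45) and no pair with Kit or Hdc did. The difference between those sets of rats was not tested, and the spread of Cpa3, Fcer1a and Ms4a2 was smaller in the latter rats.

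In the map of deviations, single rats stood out across genes. Rat 18, a high-dose male, had the highest Cpa3, Fcer1a, Ms4a2 and Tpsb2 of its group, and rat 37, a high-dose female, the lowest Cpa3, Fcer1a and Tpsb2. In the middle-dose group, rat 13 had the highest Cpa3, Fcer1a and Tpsb2 and rat 11 the lowest Cpa3, Fcer1a, Ms4a2 and Tpsb2, and both were males. In the control group rat 2, a male, had the highest Cpa3, Tpsab1, Tpsb2, Fcer1a and Ms4a2 and the lowest Cma1. High and low rats thus occurred in the same dose group and the same sex.

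**Figure D4:**
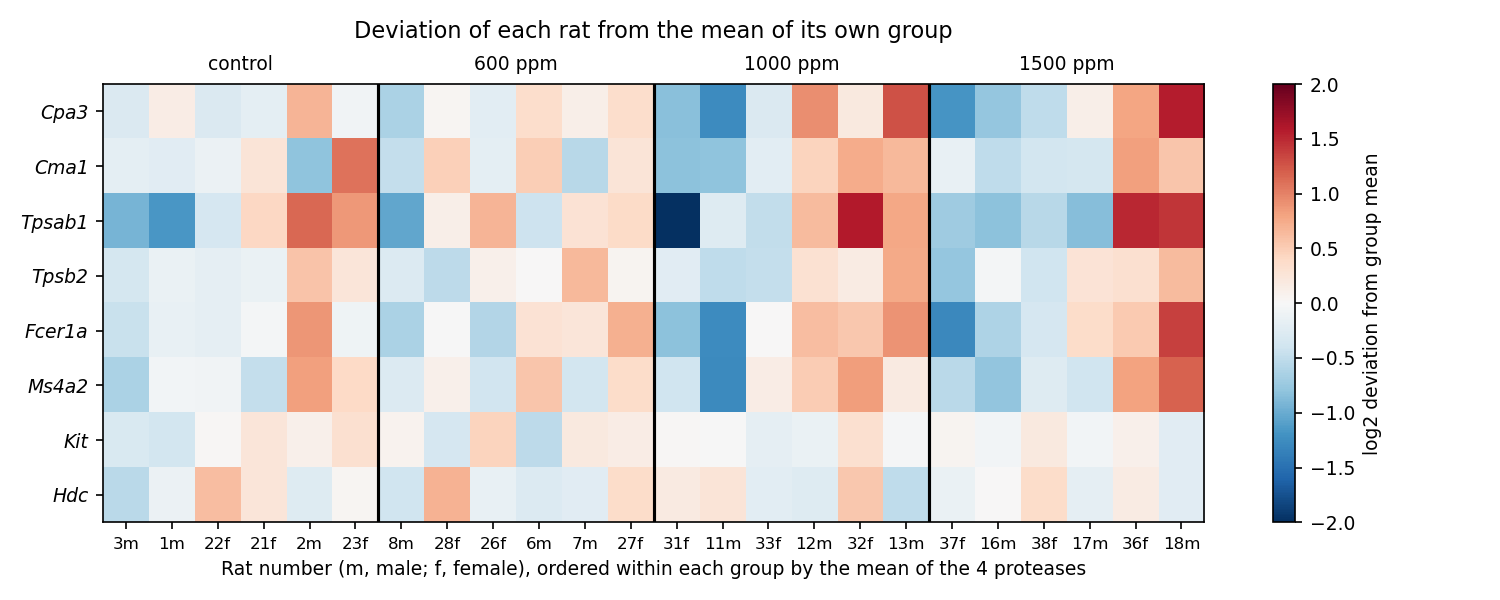
Deviation of each rat (columns) from the mean of its own dose group for each gene (rows), in log2 units from blue (lower) to red (higher), with rats ordered within a group by the mean of the 4 proteases. Columns such as rats 18, 13 and 2 are mostly red and rats 11, 31 and 37 mostly blue over the first 6 rows, while the rows of Kit and Hdc are paler.

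To find which other genes behaved like the mast cell proteases, the 4 proteases were standardised and averaged per rat, and every other tested gene was correlated with this mean after removal of group means. This is a description over 24 rats, 4 to a slide, and no test is attached to it. Among 12495 named genes, Fcer1a ranked first (r = 0.87) and Ms4a2 seventh (rank 7, r = 0.80), whereas Kit ranked 3916 (r = 0.11) and Hdc 8523 (r = -0.11). The median r of all genes was 0.03 and the 99th percentile 0.51. The 8 named non-member genes with the highest r were Mcpt9 (0.87), Mcpt8 (0.85), Mcpt8l2 (0.83), Mcpt10 (0.83), Tph1 (0.81), Mcpt1 (0.72), Car7 (0.67) and Ccin (0.67). Of these, 5 are further granule proteases of the mast cell protease family, in which probes of related sequence may share signal, and Tph1 encodes tryptophan hydroxylase, which starts serotonin synthesis in rodent mast cells. Car7 is a carbonic anhydrase gene and Ccin a gene named for a sperm head protein. Ccin was dim, with group means between -7.10 and -6.47, and its r was 0.49 with slide means removed in place of group means. Tph1 and Ccin were each measured in 23 rats, since 1 spot was marked as an outlier.

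These neighbouring proteases also showed no call at any dose. The mean ± SD over 6 rats of Mcpt10 went from -2.86 ± 0.56 in control to -3.29 ± 1.01 in the high-dose group, which differ by -0.43 (SE 0.39, limma adjusted p = 0.860). Mcpt1 had -3.24 ± 0.34 in control and -3.74 ± 0.73 in the high-dose group, a difference of -0.50 (SE 0.29, limma adjusted p = 0.769). Mcpt9 varied 4.65-fold among the 24 rats, from rat 37 to rat 18, and Mcpt8 2.77-fold, from rat 37 to rat 13. Of 14 further mast cell proteases listed, 9 were on the array and 5 were above background often enough to be tested. All 5 had a lower mean at 1500 ppm (median -0.30), as had 9829 of all 21255 tested genes. These 5 followed the same protease mean (r from 0.72 to 0.87), so they are not 5 separate observations. At any dose 0 of 5 was called, where 0.616%, 1.64% and 1.22% of all tested genes were in order of dose. Mcpt3, Mcpt4, Tpsg1 and Ctsg were not well above background.

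Markers of other cells were set against the same protease mean. The 4 basophil markers tested had r = 0.64 as a list, but Mcpt8, which stands in both lists, gave 0.85, while Prss34, a basophil protease in rodents, gave 0.41, Il3ra 0.05 and Cd200r1 0.07. The mean of 9 heart muscle markers had r = -0.20, that of 5 neutrophil markers 0.28, of 4 eosinophil markers 0.20, of 4 mesothelium markers 0.40, of 5 fat markers 0.07 and of 6 lymphoid markers -0.33. The share of probes above background on the array had r = 0.26 and the array's 75th percentile -0.24. The 7 markers of other lung cells had r = 0.40 as a list, with single genes from -0.13 (Cdh5, an endothelial gene) to 0.47 (Lyve1, a lymphatic vessel gene), and the mesothelium markers ran from 0.04 (Krt19) to 0.42 (Msln). With slide means removed in place of group means, r was -0.45 for Cdh5, 0.65 for Lyve1, -0.03 for Krt19 and 0.66 for Msln. The part of these cells in the correlation was not tested.

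Mast cells also make lipid mediators. All 10 genes of the mediator list were tested, and Ltc4s, which encodes the leukotriene C4 synthase, was called higher at 1000 ppm. Its lowest, median and highest values (probe A_64_P106563) were -4.17, -3.84 and -3.54 in control, -3.88, -3.55 and -2.90 in the low-dose, -3.95, -3.26 and -2.29 in the middle-dose, and -4.31, -3.60 and -2.80 in the high-dose group. Only 3 of the 6 middle-dose rats lay above all control rats, and the count was also 3 at 600 ppm and 3 at 1500 ppm. At 1500 ppm 1 rat lay below all control rats. The difference at 1000 ppm was 0.62, or 1.54-fold (SE 0.26, unadjusted limma p = 0.0254, adjusted 0.515, exact permutation p = 0.0606, two-sided), and it lost its call without rat 12 (0.44), rat 13 (0.57), rat 32 (0.53) or control rat 22 (0.55) and in the normexp correction (0.12). With the slide as a fixed block the difference was 1.28, and with the slide as a random block 0.80, and both kept the call. Ltc4s also followed the protease mean from rat to rat (r = 0.66, rank 13), as did Alox5, the 5-lipoxygenase gene (r = 0.63, rank 24), which was not called. Hpgds, the prostaglandin D2 synthase gene of mast cells, had r = 0.45 and a difference of 0.34 at 1000 ppm (SE 0.36, limma adjusted p = 0.799).

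Histamine is broken down by diamine oxidase, encoded by Aoc1, and by histamine methyltransferase, encoded by Hnmt, which was not well above background. Aoc1 (probe A_42_P592385) lay between 0.45 and 1.72 in control (median 0.79), between -0.27 and 1.51 at 600 ppm (median 0.31), between -1.22 and 1.17 at 1000 ppm (median -0.34) and between -0.23 and 0.83 at 1500 ppm (median 0.34). Below all control rats lay 4 rats at 600 ppm, 4 at 1000 ppm and 3 at 1500 ppm, and the groups overlapped. At 1000 ppm the level was 2.04-fold lower (log2 difference -1.03, SE 0.35, unadjusted limma p = 0.00704, adjusted 0.515, exact permutation p = 0.0346, two-sided), and the call was kept with any 1 rat left out. With the slide as a fixed block the direction turned (0.29) and the gene was not called. It was not called either with the slide as a random block (-0.69) or in females alone (-0.41). The 4 heart muscle markers named above were called higher at the same dose, and their part in this value was not tested. Aoc1 did not follow the mast cell proteases closely (r = 0.16).

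**Figure D5:**
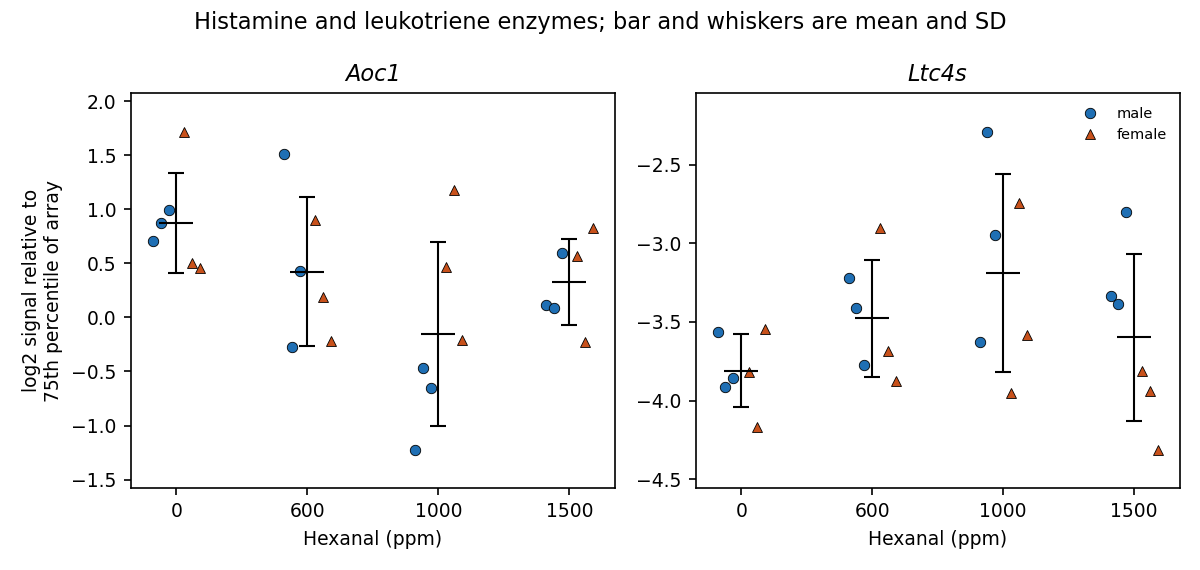
Log2 signal of Aoc1 and Ltc4s relative to the array's 75th percentile (vertical axis) in each rat by hexanal dose in ppm (horizontal axis), with males as circles, females as triangles and the mean and SD of 6 rats as bars. At 1000 ppm 4 of 6 rats lie below all control rats for Aoc1 and 3 of 6 above them for Ltc4s.

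The genes that control mast cells and carry their signal were read as background to these values. Of 6 transcription factor genes, 0 was called at any dose, where 0.616%, 1.64% and 1.22% of all tested genes were in order of dose. Gata2, required for mast cell development, was at -0.06 ± 0.32 in control and -0.48 ± 0.25 in the high-dose group (SD, n = 6), with a difference of -0.41 (SE 0.19, limma adjusted p = 0.692) that stayed under 1.5-fold, and it had r = 0.45 with the protease mean. Of 13 genes downstream of FcεRI, such as Lyn and Syk, 0 was called, and 10, 11 and 9 had a lower mean than control in order of dose, where 10710, 10361 and 9829 of all 21255 tested did. These counts were not tested. Of 7 other receptor genes tested, 0 was called. Fcer1g, the signalling subunit that FcεRI shares with other Fc receptors, differed by 0.11, -0.06 and -0.07 (SE 0.10 each). Of 8 growth factor and cytokine genes, Kitlg, which encodes stem cell factor, and Il33 were above background, and 0 of 2 was called. The cytokine genes Il3, Il4, Il5, Il9 and Il13 were not well above background.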

How the data were processed

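Lung mRNA of 24 F-344 rats was measured in 4 groups of 6, mapped from the labels. The authors' deposited intensities are processed signals of Agilent Feature Extraction 11.5.1.1, background-subtracted by the software and not scaled between arrays. Control and outlier spots were left out, spots of a probe averaged, and log2 signals set relative to each array's 75th percentile. A probe was kept when well above background on 5 of 6 arrays in any group (23616 of 30367 probes). The probe with the highest mean stood for its gene (21255 genes or unnamed probes). Accessions were matched to symbols through RefSeq (GRCr8), for 60.4% of probes. The array was designed on another build, so no probe coordinates are given. The number of arrays limits the precision.

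Each dose was compared with control by limma 3.58.1 (R 4.3.3) on all 24 arrays, in place of the methods' t-test, with p-values adjusted over all tested genes, and the scripts were tested on simulated data. Exact permutation tests set 6 rats against 6. Correlations used Python 3.11.15, numpy 2.4.6 and scipy 1.17.1, with 100000 permutations within groups and p-values adjusted over the 28 pairs. The members and gene lists were chosen with earlier results of these data known. Named besides the members were genes of the other mast cell lists called at any dose and the 8 named genes most like the protease mean. Genes given as examples of a list (Alox5, Hpgds, Gata2, Fcer1g, Kitlg, Il33, Prss34, Il3ra, Cd200r1, Msln, Krt19, Lyve1, Cdh5, Actc1, Tnni3, Tnnt2, Sln) were chosen after their values were seen. Alternatives were normexp (offset 50), quantile and median scaling, the unscaled table, other filters, the methods' t-test, control with 1 dose, sex and slide terms, array weights, each probe counted, an adjusted threshold, 1 sex alone and leaving out each rat. The correlations under quantile and normexp, in males or females alone and in pairs of dose groups, and the comparison of levels between the sexes, were added after the data were seen. No protein or probe sequences were used here.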

Additional observations from a re-analysis of the deposited data

Results flagged for a closer look

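Of the 40 groups of 6 rats examined for a rat far from the others, 1 was marked. It was Fcer1a in the control group, where rat 2, a male, had the highest level (-3.40) and its gap to the next rat was 0.697 of the group's whole range. Chance marks about 1 group in 20. The same rat was the highest control for Cpa3, Tpsab1, Tpsb2 and Ms4a2.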

How the results depend on the processing

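No member was called at any dose, in the dose trend or in the difference between the sexes under any alternative run. The alternatives gave 952 further differences from control with 0 called. They refit the same 24 comparisons on the same rats or part of them, so they are not separate observations. Few of all 21255 tested genes were called either, such as 11 higher and 29 lower at 600 ppm under normexp. In females alone at 1500 ppm 384 were called higher and 707 lower. Of the 952 differences, 70 had the opposite sign to the value reported: 33 of 360 under other settings, 33 of 576 with 1 rat left out and 4 of 16 within a slide. The number of pairs with an adjusted permutation p-value under 0.05 was 14. It was 1 in the control and 600 ppm rats alone, 9 in males alone and 1 in females alone, each with 12 rats. In males 8 of the 9 were pairs of the 4 proteases and 2 IgE receptor subunits, and the other was Kit with Cma1 (r = -0.69). The slide as a fixed block moved other values by over 1.5 times as well, among them Tpsb2 at 1500 ppm (-0.37), Kit at 1500 ppm (0.24) and Fcer1a at 1000 ppm (-0.45), with 0 called. For Aoc1 at 1000 ppm the difference was 0.29 with the slide as a fixed block, against -1.03. Ltc4s and Aoc1 had no call under the adjusted threshold. Ltc4s also lost its call with array weights (0.56) and in females alone (0.42). The causes of these shifts were not tested. No paired analysis was possible because the rat numbers are not shared between the dose groups. With 6 rats per group, the 95% intervals of 1500 ppm differences include a 1.5-fold fall for Cpa3, Cma1, Tpsab1, Tpsb2, Fcer1a and Ms4a2.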
